A study of Mus musculus with 4 samples.

Results

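The expression of 10 genes of the smooth muscle contractile apparatus was followed across the cell groups of the small intestinal lamina propria, namely Acta2, Actg2, Des, Myh11, Tagln, Cnn1, Myl9, Smtn, Synpo2 and Lmod1. They were matched by gene ID in both gene expression libraries, and all 10 were found, with 1 ID each, among 31950 IDs that the libraries share. The cells came from the proximal small intestine of WT mice and of A20ZF7 mice, which carry knock-in point mutations that abolish the binding of M1-linked ubiquitin by zinc finger 7 of A20 (Tnfaip3). Mice of both genotypes were 12 weeks old, and cells of 2 mice were pooled per genotype into 1 5′ single-cell library each. In both genotypes T cells and innate lymphoid cells were enriched by negative selection after enzymatic digestion and a Percoll gradient, so the stromal cells described here are those that this step left behind, and a share of cells is no share of the tissue.

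With 1 library per genotype there was no replicate test. Intervals are 95% and cover counting error alone, with exact Poisson limits for levels, exact binomial limits for shares and conditional exact limits for ratios. Levels are given as CPM, the unique molecular identifiers (UMIs) of a gene scaled to a common total of the UMIs of the cells named, on which 31290 CPM is 3.13% of their UMIs. Each UMI stands for 1 captured 5′ end, so a level was not divided by gene length. WT cells could be given to mouse 1 or mouse 2 by hashtag antibodies, whereas the antibody counts deposited for A20ZF7 were identical to those for WT in 3 of 3 files and assigned no A20ZF7 cell.

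Smooth muscle shortens when myosin pulls on actin filaments that are anchored to dense bodies. Calcium and calmodulin activate myosin light chain kinase (Mylk), which phosphorylates the regulatory light chain of myosin, and a phosphatase reverses this step. In the gut, smooth muscle forms the muscularis, the muscularis mucosae, strands in the villus core and the walls of vessels. Acta2 and Actg2 encode the smooth muscle alpha and gamma actins, of which the gamma form is the one best known from visceral muscle. Myh11 encodes the smooth muscle myosin heavy chain and Myl9 the regulatory light chain. Tagln (transgelin), Cnn1 (calponin) and Smtn (smoothelin) bind actin, Des (desmin) forms the intermediate filaments, Synpo2 encodes a protein of actin bundles and dense bodies, and Lmod1 (leiomodin) nucleates actin filaments. Many of these genes are bound by serum response factor with its partner myocardin at a 10-base element named the CArG box.

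The genes lie on 8 chromosomes of GRCm38 (mm10), with Cnn1 and Tagln on one and Des and Lmod1 on another. Acta2 spans chr19:34241090-34255590 on the minus strand, Actg2 chr6:83512905-83536265 on the minus strand, Myh11 chr16:14194535-14291372 on the minus strand and Tagln chr9:45929619-45936058 on the minus strand. Cnn1 spans chr9:22099216-22109630 on the plus strand. Des spans chr1:75360329-75368579 and Lmod1 chr1:135324807-135368065, both on the plus strand. Myl9 spans chr2:156775420-156781658 on the plus strand, Smtn chr11:3517523-3540612 on the minus strand and Synpo2 chr3:123076519-123236149 on the minus strand. Tagln overlaps Pcsk7 on the opposite strand, and Des, Smtn, Synpo2 and Lmod1 overlap non-coding or pseudogene models. The coding parts of Acta2 and Actg2 are nearly the same, so how reads inside them were split between the actin genes is uncertain.

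RefSeq promoter windows of GRCm38.p6, from 250 bases before the start to 50 after it, were at hand for 7 of the 10 genes, the exceptions being Actg2, Myh11 and Tagln. An exact CArG box was found in the window of 1 gene, Myl9, and in 1.63% of all 32851 windows. With 1 mismatch allowed, 3 of the 7 windows held a box (Acta2, Myl9 and Lmod1), against 21.1% of all windows. The stretches are shown because these are the promoter elements known for the list, with the box in capitals and positions counted from the RefSeq start. Those of Acta2 lie in an exon of the GENCODE annotation, those of Myl9 and Lmod1 do not.
Acta2, bases -84 to -75, 1 mismatch, chr19:34255438-34255467, minus strand: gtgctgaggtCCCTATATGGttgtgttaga
Acta2, bases -34 to -25, 1 mismatch, chr19:34255388-34255417, minus strand: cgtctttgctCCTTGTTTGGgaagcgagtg
Myl9, bases -161 to -152, exact, chr2:156775293-156775322, plus strand: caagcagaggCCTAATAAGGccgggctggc
Myl9, bases -99 to -90, 1 mismatch, chr2:156775355-156775384, plus strand: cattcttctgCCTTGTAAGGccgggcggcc
Lmod1, bases -189 to -180, 1 mismatch, chr1:135324614-135324643, plus strand: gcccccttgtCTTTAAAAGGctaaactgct
Lmod1, bases -164 to -155, 1 mismatch, chr1:135324639-135324668, plus strand: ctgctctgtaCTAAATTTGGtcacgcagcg
A match describes the letters of the window alone. The windows of Des, Cnn1, Smtn and Synpo2 held neither form.

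After filtering, 14753 WT and 43162 A20ZF7 cells remained, with medians of 1059 and 853 UMIs per cell and 20331737 and 46152566 UMIs in all. The libraries shared 913 cell barcodes, of which 102 WT and 27 A20ZF7 barcodes were in the smooth muscle-like clusters and 5 were so in both. Without the shared barcodes the A20ZF7 to WT ratio of the summed level of the 10 genes was 0.582, as with them. Cells were clustered without the 10 genes, so that the clusters did not rest on them directly, and clusters were named from other markers. The genes are correlated with those that formed the clusters, and levels by cluster are a description with no test.

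Of 26 clusters, 2 were smooth muscle-like. The 12 smooth muscle markers used in naming include Mylk, Tpm2, Cald1 and Myocd. In the first cluster they were together at 15538 CPM in WT and 9822 CPM in A20ZF7. In the second they were at 20584 and 13417 CPM, against 237 and 228 CPM in T and innate lymphocytes. The first, named here for Notch3, held 1276 WT and 951 A20ZF7 cells. Its leading genes were Mustn1, Sorbs2, Ctnna3, Notch3 and Pln. It also carried pericyte markers, with the list at 2306 CPM in WT and 1848 CPM in A20ZF7. In T and innate lymphocytes that list was at 34.65 and 45.7 CPM. The muscle of vessel walls and pericytes cannot be told apart in it. The second, named for Hhip, held 476 WT and 417 A20ZF7 cells and was led by Hhip, Mylk, Kcnma1, Tpm2 and Pgm5. The pericyte list was not particular to the Notch3 cluster, since it was at 1532 CPM in WT and 1299 CPM in A20ZF7 in the Hhip cluster. The fibroblast list of the Hhip cluster reached 8847 CPM in WT cells and 8597 CPM in A20ZF7 cells, against 986 and 953 CPM in the Notch3 cluster. Mesothelial markers were at 0 in both, with 0 of 4 detected. A separate clustering of the same cells at a finer resolution gave an Hhip sub-cluster of 424 WT and 388 A20ZF7 cells and a Pcp4 sub-cluster of 51 WT and 41 A20ZF7 cells. These are not an exact split of the Hhip cluster, since in A20ZF7 they hold more cells than it does. The Pcp4 sub-cluster was led by Pcp4, Mylk, Tnnt2 and Chrm2, the last of which encodes the M2 muscarinic receptor. Its pericyte list was at 4401 CPM in WT and 2560 CPM in A20ZF7, above the Notch3 cluster. A further cluster of 199 WT and 277 A20ZF7 cells mixed smooth muscle and fibroblast markers at a higher depth (median 1813 UMIs) and was left unnamed.

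Contractile transcripts lay mainly in the Notch3 and Hhip clusters. The 10 genes together took 31290 CPM there in WT (3.13% of UMIs) and 18198 CPM in A20ZF7 (1.82%). In T and innate lymphocytes, which should lack these genes, the sum was 164 CPM in WT and 112 CPM in A20ZF7. The WT level in the smooth muscle-like clusters was 191 times that in lymphocytes (176 to 208). Barcodes under 100 UMIs, which hold free RNA, were richer in these genes than lymphocytes were, at 2051 CPM in WT and 823 CPM in A20ZF7. Against these barcodes the WT smooth muscle-like level was 15.3 times higher.

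**Figure D1:**
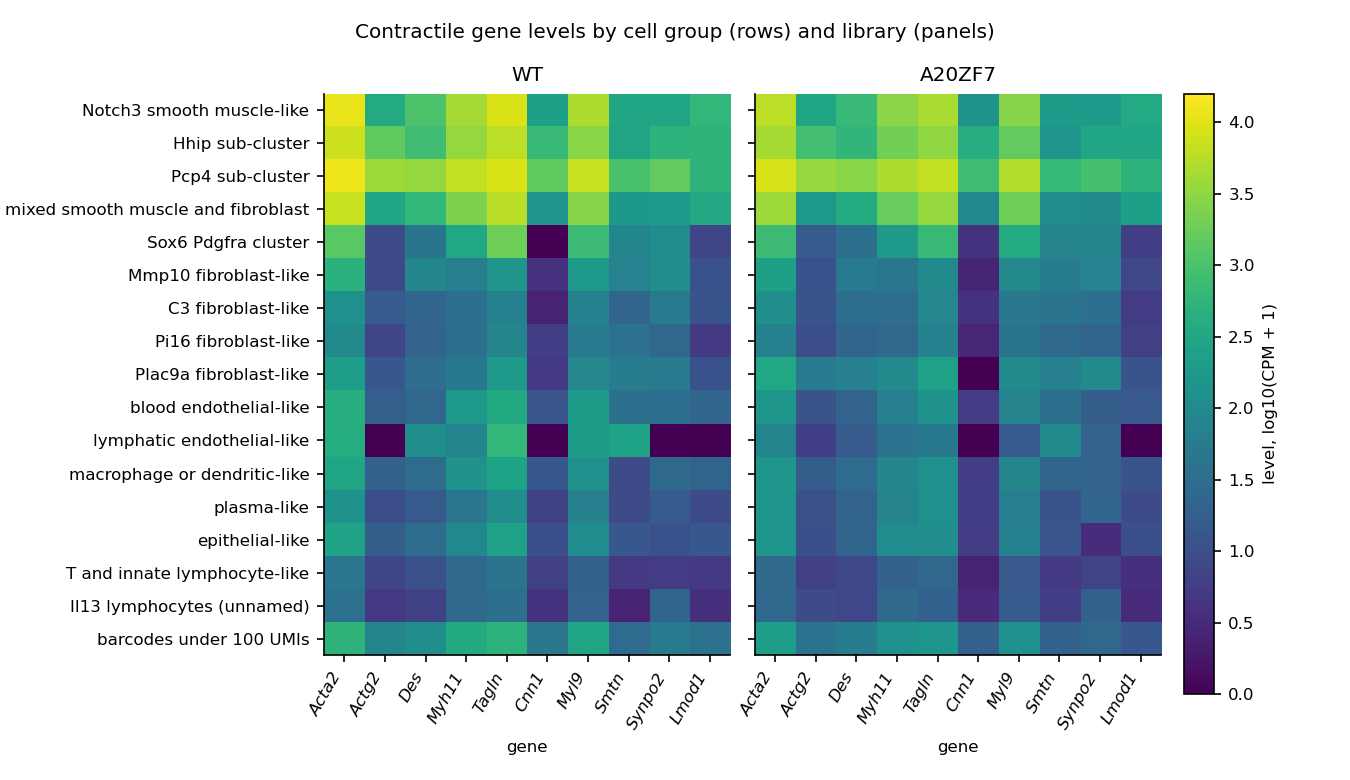
Heat map of the level of each of the 10 genes (columns) in 16 cell groups and in barcodes under 100 UMIs (rows), for WT (left) and A20ZF7 (right), as log10 of CPM plus 1. The top rows, the smooth muscle groups, carry all 10 genes, the Sox6 Pdgfra row is bright mainly for Acta2, Tagln, Myl9 and Myh11, and the lymphocyte rows are dark.

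Of the UMIs of the 10 genes in WT cells, 77.6% were in the smooth muscle-like clusters, although these held 11.9% of the WT cells. Over the whole WT library, with barcodes that did not pass as cells, the figure was 58.8%, and 49.4% in A20ZF7. Smtn and Synpo2 stood apart from the others in this. The smooth muscle-like clusters held 43.0% of the Smtn UMIs and 41.2% of the Synpo2 UMIs of the WT library, against 57.1% to 62.8% for the other 8 genes. In the A20ZF7 library the values were 22.6% for Smtn and 24.4% for Synpo2, against 46.8% to 61.2% for the others. The fibroblast-like clusters held 36.8% of the Smtn UMIs and 32.7% of the Synpo2 UMIs in A20ZF7, more than the smooth muscle-like clusters did. They also held 25.4% of all UMIs of that library, against 2.86% in the smooth muscle-like clusters. As levels, both genes were lower in the fibroblast-like clusters. Smtn was at 40.9 CPM there against 222 CPM, and Synpo2 at 39.7 against 263 CPM.

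In the Notch3 cluster Acta2 was the most abundant of the 10 genes in both libraries, at 11315 CPM in WT and 6083 CPM in A20ZF7. Tagln followed at 9247 and 4677 CPM. Myl9 (4804 CPM) stood above Myh11 (4272 CPM) in WT, whereas in A20ZF7 Myh11 (2997 CPM) stood above Myl9 (2738 CPM). Des came next at 1078 CPM in WT and 676 CPM in A20ZF7, and then Lmod1 at 593 and 364 CPM. The other 4 were low, with Actg2 at 367 and 297 CPM, Synpo2 at 309 and 182 CPM, Smtn at 294 and 207 CPM and Cnn1 at 246 and 148 CPM. The intervals of Synpo2 and Smtn overlapped in either library.

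The Hhip cluster was set apart by the gamma actin. Actg2 stood at 1947 CPM in WT, 5.31 times its level in the Notch3 cluster (4.82 to 5.85), and at 1414 CPM in A20ZF7, 4.77 times (4.16 to 5.48). Cnn1 was 3.37 times higher than in the Notch3 cluster in WT (2.96 to 3.83) and 3.30 times higher in A20ZF7 (2.68 to 4.07). Synpo2 was 2.30 times higher in WT (2.03 to 2.61) and 2.28 times higher in A20ZF7 (1.87 to 2.80). These were the 3 genes of the 10 that stood at least 2-fold higher in the Hhip cluster in either library, where 12.0% of 4092 genes did so in WT and 10.4% of 4225 genes in A20ZF7. In the Hhip sub-cluster, without the Pcp4 cells, Synpo2 was less than 2-fold above the Notch3 cluster. It was at 523 CPM in WT and 288.5 CPM in A20ZF7 there, against 309 and 182 CPM.

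For the main filament genes the ratio lay below 1. In WT the Hhip to Notch3 ratio was 0.752 for Acta2, 0.723 for Tagln and 0.75 for Myl9, and in A20ZF7 it was 0.859, 0.836 and 0.816. Myh11 lay below 1 too, at 0.922 (0.882 to 0.964) in WT and 0.862 (0.808 to 0.920) in A20ZF7, and for Lmod1 both intervals held 1. Des was 1.20 times higher in the Hhip cluster in WT and 1.5 times higher in A20ZF7. Smtn was 1.39 times higher in WT (1.20 to 1.62), and its A20ZF7 interval (0.969 to 1.52) held 1. Neither gene was higher in the Hhip sub-cluster, from which the finer clustering set the Pcp4 cells apart. Des was at 808 CPM in WT and 577 CPM in A20ZF7 there, against 1078 and 676 CPM in the Notch3 cluster. Smtn was at 281.5 and 160 CPM there, against 294 and 207 CPM. The sum of the 10 genes was 32525 CPM in the Notch3 and 28463 CPM in the Hhip cluster in WT, and 18368 and 17874 CPM in A20ZF7.

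**Figure D2:**
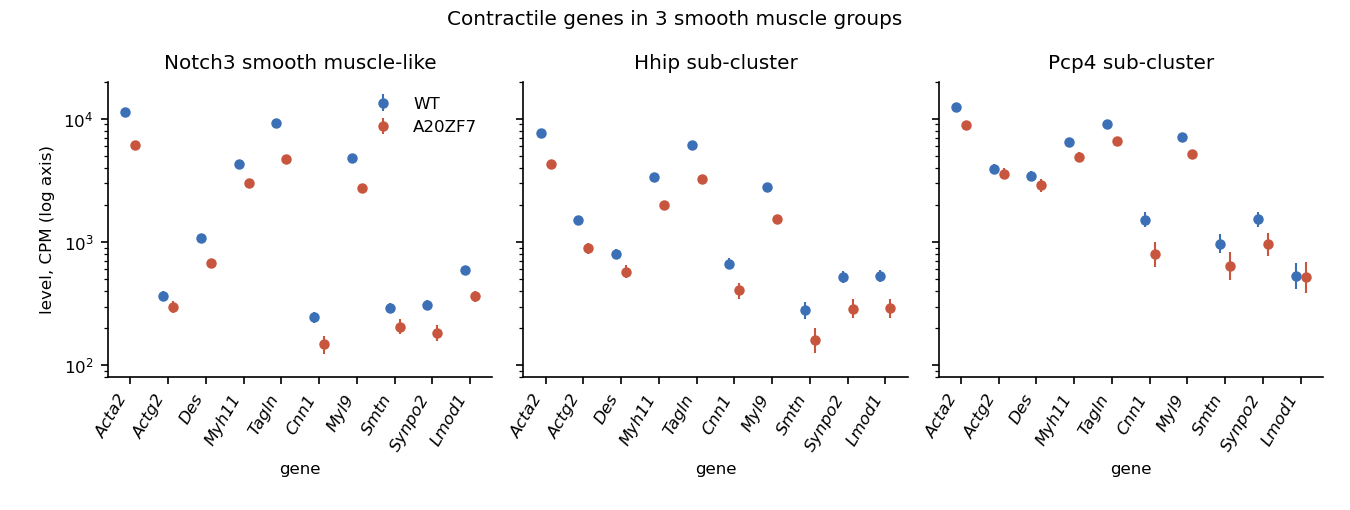
Level of each gene in CPM (log axis) in the Notch3 cluster, the Hhip sub-cluster and the Pcp4 sub-cluster, for WT (blue) and A20ZF7 (red), with exact Poisson 95% intervals that are often smaller than the points. Actg2, Cnn1, Synpo2 and Smtn are low in the Notch3 cluster. Most genes are highest in the Pcp4 sub-cluster, whereas in WT the points of Tagln and Lmod1 are highest in the Notch3 cluster.

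The 51 WT and 41 A20ZF7 cells of the Pcp4 sub-cluster held the highest summed level of any group examined, at 47043 CPM in WT and 34938 CPM in A20ZF7. The median ratio of the 10 genes to the Hhip sub-cluster was 2.42 in WT and 2.88 in A20ZF7. Over all genes past the minimum level the median was 0.65 in WT and 0.6315 in A20ZF7. Des showed the widest gap, 3443 against 808 CPM in WT (ratio 4.26, 3.74 to 4.86) and 2881 against 577 CPM in A20ZF7 (4.99, 4.195 to 5.95). Actg2 was at 3907 CPM in WT and 3596 CPM in A20ZF7, and Smtn at 973 and 643 CPM. At least 2-fold ratios were seen for 6 of the 10 genes in WT, where 7.32% of 3185 genes stood as high, and for 8 of 10 in A20ZF7, where 4.79% of 3069 genes did. Lmod1 was even in WT, at 532 CPM in both sub-clusters (ratio 1.001, 0.761 to 1.30), and 1.77 times higher in A20ZF7 (1.25 to 2.47). The Pcp4 cells were deeper than the rest, with a median of 2380 UMIs over both libraries. The fibroblast list was at 1657 CPM in WT and 2394 CPM in A20ZF7 in these cells and at 10486 and 10269 CPM in the Hhip sub-cluster. The part of either in the ratios was not tested.

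A cluster of 724 WT and 1417 A20ZF7 cells, led by Sox6, Pdgfra, Rbp4, Abcc9 and Ednrb and left unnamed, held the 10 genes at very unequal levels. Its leading marker list was that of pericytes, which includes Abcc9 (mean log2 fold 0.917). The fibroblast list (0.781) and the smooth muscle list (0.579) came below it. As levels the order differed, with the fibroblast list at 12823 CPM in WT and 10527 CPM in A20ZF7. The smooth muscle list was at 5079 and 3224 CPM, and the pericyte list at 1228 and 870 CPM. The level of Tagln was 1846 CPM (WT) and 709 CPM (A20ZF7), 46.0 and 29.1 times the lymphocyte level of the same library. Acta2 was at 1346 and 746 CPM, Myl9 at 742 and 381 CPM and Myh11 at 318 and 182 CPM. Barcodes under 100 UMIs held less Tagln (514 and 161 CPM), Acta2 (530 and 223 CPM) and Myl9 (291 and 130 CPM), but in WT more Myh11 (357 and 134 CPM). Synpo2 was at 109 and 83.4 CPM and Smtn at 83.9 and 74.8 CPM, against 53.6 and 24.2 CPM and 28.3 and 19.1 CPM in the barcodes under 100 UMIs. Actg2, Cnn1 and Lmod1 were at a few UMIs. Actg2 had 8 UMIs in WT (8.61 CPM, 1.295 times the lymphocyte level, 0.501 to 3.0) and 25 in A20ZF7 (15.3 CPM, 2.88 times, 1.75 to 4.60). Lmod1 had 6 and 8 UMIs, and Cnn1 had 0 and 5 UMIs. The exact upper limit for the 0 of Cnn1 in WT was 3.97 CPM, and WT lymphocytes had 5.198 CPM (3.08 to 8.22), so the intervals overlapped. Des, at 41.95 CPM in WT and 34.4 CPM in A20ZF7, was 4.27 and 4.94 times the lymphocyte level but lower than in the barcodes under 100 UMIs, which held 112 and 60.1 CPM.

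The make-up of the contractile transcripts put the same pattern in relative terms. Tagln made up 41.0% of the UMIs of the 10 genes in the WT Sox6 Pdgfra cluster and 31.8% in A20ZF7, against 28.4% and 25.5% in the Notch3 cluster. Actg2 made up 0.191% there in WT, against 6.84% in the Hhip cluster and 1.13% in the Notch3 cluster. In lymphocytes and in barcodes under 100 UMIs the make-up of both libraries lay between those of the Notch3 and Hhip clusters for Actg2, with its share between 4.01% and 4.78%. Its share in the Sox6 Pdgfra cluster, 0.191% in WT and 0.687% in A20ZF7, was below that of barcodes under 100 UMIs in both libraries.

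**Figure D3:**
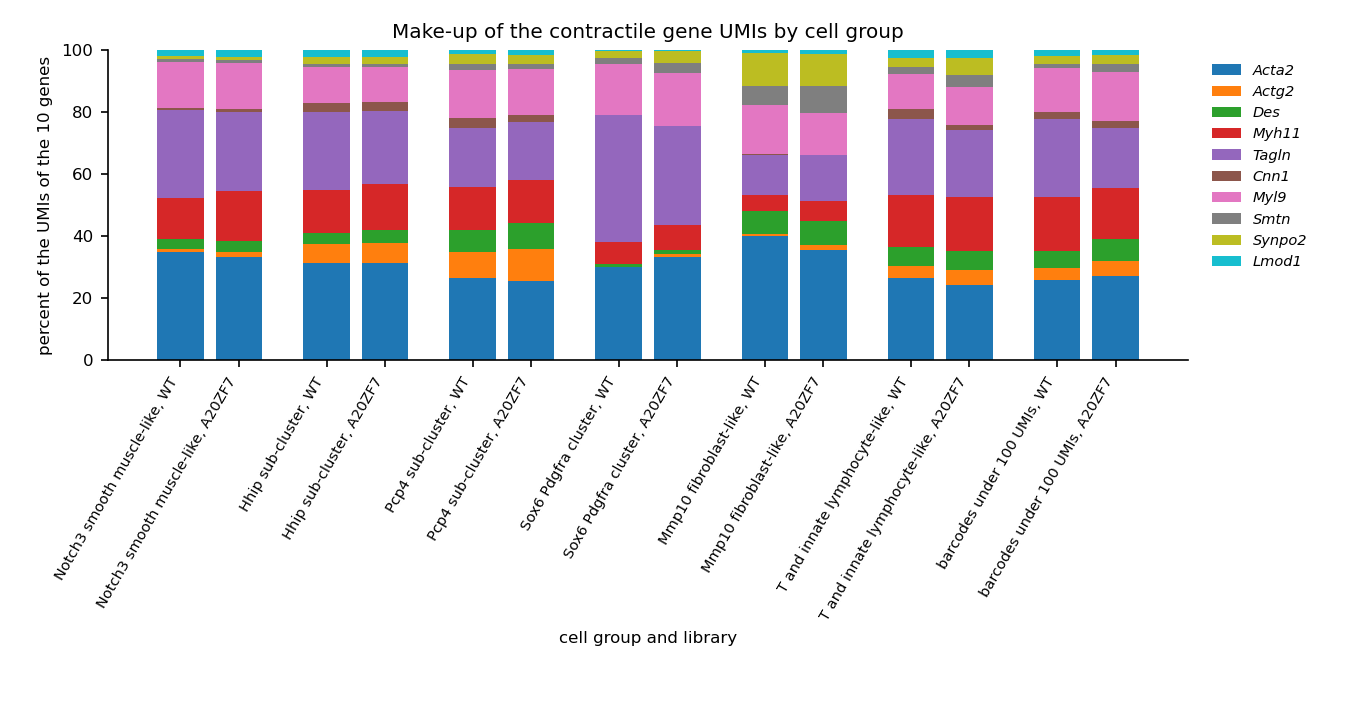
Stacked bars of the share of each gene in the UMIs of the 10 genes, in percent, for 5 stromal groups, for lymphocytes and for barcodes under 100 UMIs, each for WT and A20ZF7. The Sox6 Pdgfra bars consist mainly of Acta2, Tagln, Myl9 and Myh11, and Smtn and Synpo2 are wide in the Mmp10 bars.

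Fibroblast-like cells were low in the list as a whole, with a sum of 710 CPM in WT and 446 CPM in A20ZF7, less than in barcodes under 100 UMIs. In these cells Smtn had 53.5 CPM (WT) and 40.9 CPM (A20ZF7), and Synpo2 64.6 and 39.7 CPM. Both were higher than in lymphocytes, and Synpo2 in WT was close to the 53.6 CPM of the barcodes under 100 UMIs. The highest fibroblast-like values for Acta2 in WT were those of a cluster led by Mmp10, Saa3 and Cxcl14, with 472 CPM in WT and 244 CPM in A20ZF7, near the 530 and 223 CPM of the barcodes under 100 UMIs. There Synpo2 was at 124 and 73.1 CPM, 26.7 times the lymphocyte level in WT (16.0 to 47.9) and 11.6 times in A20ZF7 (9.00 to 15.1). Smtn was at 72.3 and 58.5 CPM, 17.9 and 13.9 times the lymphocyte level. Smtn and Synpo2 made up 6.15% and 10.5% of the UMIs of the 10 genes in the WT Mmp10 cluster, and 0.905% and 0.951% in the WT Notch3 cluster. Actg2 and Cnn1 were at 7.53 and 3.01 CPM in WT, with intervals of the ratio to lymphocytes that held 1.

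Smtn was also found in lymphatic endothelial-like cells. Among 154 A20ZF7 cells of that kind it was at 98.5 CPM, 23.4 times the lymphocyte level (13.3 to 39.5), whereas Acta2 was at 78.8 CPM, 2.91 times. The 22 WT cells did not show this order, with 276 CPM for Smtn from 7 UMIs, 395 CPM for Acta2 from 10 UMIs and 592 CPM for Tagln from 15 UMIs. In blood endothelial-like cells Smtn had 34.5 CPM (WT) and 34.2 CPM (A20ZF7), against 28.3 and 19.1 CPM in barcodes under 100 UMIs. Lymphocytes with Il13, Il17rb and Gata3 as leading genes had a low sum (157 CPM in WT, 128 CPM in A20ZF7) but more Synpo2 than the other lymphocytes, at 21.2 and 18.1 CPM, 4.59 times (2.51 to 8.77) and 2.88 times (1.92 to 4.25) their level, though less than the 53.6 and 24.2 CPM of barcodes under 100 UMIs. After thinning each cell to 500 UMIs, 1.11% of these WT cells and 0.720% of these A20ZF7 cells held a Synpo2 UMI, against 0.281% and 0.317% of the other lymphocytes (2.04%, 1.64%, 0.4496% and 0.460% before thinning, at medians of 938.5, 831, 837 and 650 UMIs).

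The series sets the A20ZF7 intestine against that of WT, and the contractile genes were compared between them in the same groups of cells. In both smooth muscle-like clusters together, all 10 genes had a lower level in A20ZF7 than in WT. Acta2 had 10462 CPM (WT) and 5787 CPM (A20ZF7) (ratio 0.553, 0.540 to 0.567), and Tagln at 8469 and 4412 CPM (0.521, 0.507 to 0.536). Myl9 stood at 4439 and 2564 CPM (0.578) and Myh11 at 4170 and 2855 CPM (0.685, 0.660 to 0.710). The summed level had a ratio of 0.582 (0.574 to 0.590). No gene of the 10 passed 2-fold either way, where 10.1% of 4048 genes did, 8.0% higher and 2.12% lower in A20ZF7. The median ratio of the 10 genes was 0.624 and that of all 4048 genes 1.012, with a lower quartile of 0.80.

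The genes did not share 1 ratio. Tagln and Acta2 had the lowest ratios and Actg2 the highest (0.806, 0.747 to 0.869), and the interval of Actg2 lay above those of the 9 others except Smtn (0.674, 0.591 to 0.767). Des was at 0.692, Cnn1 at 0.628, Lmod1 at 0.619 and Synpo2 at 0.609. As a share of the 10 genes, Tagln made up 27.1% in WT and 24.2% in A20ZF7, and Myh11 13.3% and 15.7%. Within the Notch3 cluster the sum had a ratio of 0.565 (0.555 to 0.574), and within the Hhip cluster 0.628 (0.613 to 0.644). In the Pcp4 sub-cluster it was 0.743 (0.712 to 0.775), with Actg2 at 0.920 (0.801 to 1.06) and Lmod1 at 0.974 (0.664 to 1.42). In the Sox6 Pdgfra cluster it was 0.496 (0.475 to 0.519). There 1 of the 6 genes past the minimum level, Tagln, was at least 2-fold lower in A20ZF7 (0.384, 0.356 to 0.414), as 2.52% of 4372 genes were. In the Mmp10 cluster 1 of 7, Myl9 (0.497, 0.417 to 0.594), was so, as were 2.33% of 4157 genes. Against the WT cells with a hashtag call alone, Tagln in the Sox6 Pdgfra cluster did not pass 2-fold (0.517, 0.467 to 0.574). The sum in that cluster then had a ratio of 0.639 (0.601 to 0.681). The Mmp10 cluster was not compared with the called cells alone.

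Lower values in A20ZF7 were also seen outside the smooth muscle-like clusters, though not in every group. The sum was 0.684 times the WT level in lymphocytes (0.621 to 0.755) and 0.401 times in barcodes under 100 UMIs (0.378 to 0.425). It was 0.417 times in blood endothelial-like (0.381 to 0.457), 0.557 times in macrophage or dendritic-like (0.493 to 0.630) and 0.627 times in epithelial-like cells (0.540 to 0.724), as low as or near the ratio in the smooth muscle-like clusters. In plasma-like cells it was 1.17 times the WT level (1.08 to 1.28), and in the Plac9a fibroblast-like cluster, with 88 A20ZF7 cells, 1.54 times (1.24 to 1.89). Markers of T and innate lymphocytes, 11 of 11 detected, were at 1879 CPM in the A20ZF7 and 754 CPM in the WT Notch3 cluster, and at 1435 and 582 CPM in the Hhip cluster. In the Notch3 cluster, 37.9% of A20ZF7 and 18.7% of WT barcodes held more than 2 UMIs of the lymphocyte, B cell, macrophage, mast, epithelial, glial and endothelial lists. Once these barcodes were left out of both clusters, the summed level was 34252 CPM in WT and 22435 CPM in A20ZF7, a ratio of 0.655 (0.644 to 0.666). Barcodes called for both hashtags had been left out beforehand in WT alone (2547 of those with at least 200 genes), as A20ZF7 had no calls. The part of this filter in the values above was not tested.

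**Figure D4:**
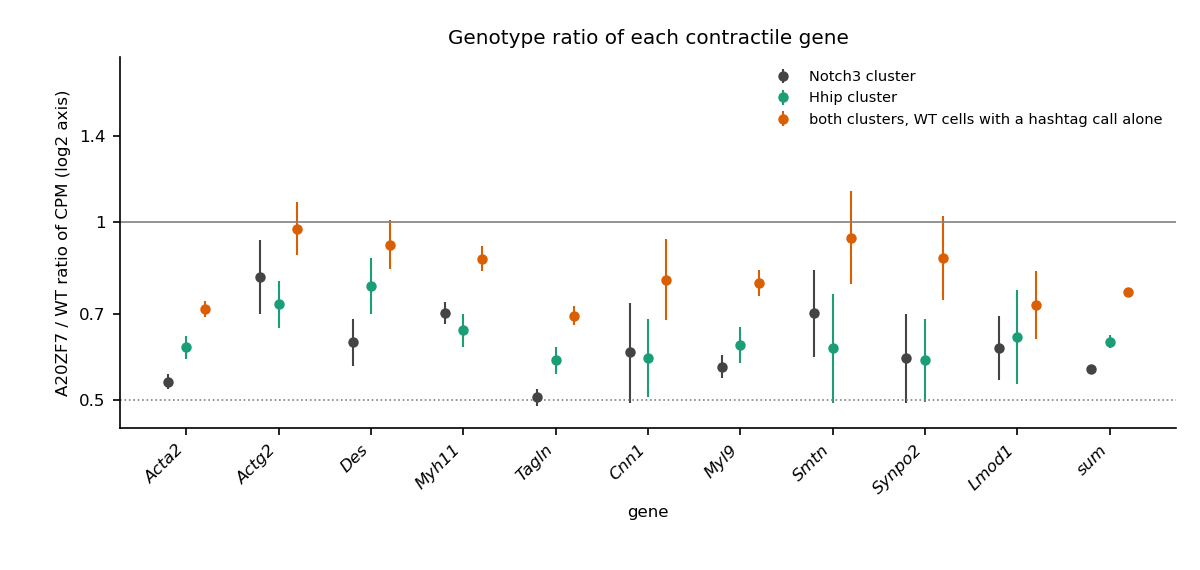
A20ZF7 to WT ratio of the CPM of each gene and of their sum (log2 axis) in the Notch3 cluster (grey), in the Hhip cluster (green) and in both against the WT cells with a hashtag call alone (orange), with 95% intervals of counting error. Lines mark a ratio of 1 and of 0.5. The orange points lie nearest to 1, and those of Actg2, Des, Smtn and Synpo2 have intervals that hold it.

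The WT cells themselves differed by hashtag. Of the 1752 WT smooth muscle-like cells, 242 were called for mouse 1 and 260 for mouse 2, and 1250 had no hashtag call. The summed level was 24159 CPM in mouse 1 (23674 to 24651) and 23712 CPM in mouse 2 (23255 to 24176), but 35342 CPM (35041 to 35644) in cells with no call. Between the mice none of the 10 genes differed 2-fold, as 2.76% of 4060 genes did, and all 10 intervals of the mouse 2 to mouse 1 ratio held 1, with ratios from 0.801 for Synpo2 to 1.24 for Smtn. The uncalled cells cannot be given to a mouse. In them Acta2 was at 11753 CPM, against 8152 CPM in mouse 1 and 8080 CPM in mouse 2. Actg2 was at 928 CPM in them, against 656 and 741 CPM. The share of all genes that were higher in the uncalled cells was not computed, so the genes above both mice are not counted. Ribosomal genes took 13.1% of the UMIs of uncalled cells, against 16.1% in mouse 1 and 16.85% in mouse 2. Lymphocyte markers were at 411 CPM in uncalled cells, against 1178 and 1278 CPM.

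Against the WT cells with a call, the A20ZF7 ratio of the sum was 0.761 (0.747 to 0.775). Tagln (0.695, 0.671 to 0.721), Acta2 (0.713, 0.691 to 0.736) and Lmod1 (0.725, 0.636 to 0.827) had the lowest ratios, followed by Myl9 at 0.790, Cnn1 at 0.799 and Myh11 at 0.867. Actg2 (0.975, 0.8795 to 1.08), Smtn (0.941, 0.787 to 1.13), Des (0.916, 0.834 to 1.007) and Synpo2 (0.869, 0.740 to 1.02) had intervals that held 1. Cells with a call were deeper, with medians of 1488 and 1514 UMIs against 1051 in cells without one, and more of them held more than 2 UMIs of other classes (38.0% and 43.9% against 10.2%). The A20ZF7 cells, with 36.6%, were near the called WT cells in that count, but at a lower median of 938 UMIs. As a level, lymphocyte markers were higher in A20ZF7, at 1726 CPM against 1178 CPM in mouse 1 and 1278 CPM in mouse 2. With the called WT cells alone and the barcodes rich in other classes left out, the summed ratio was 0.837 (0.817 to 0.857). The part of hashtag status and of lymphocyte RNA in the difference was not tested beyond these values, and genotype and library cannot be told apart.

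**Figure D5:**
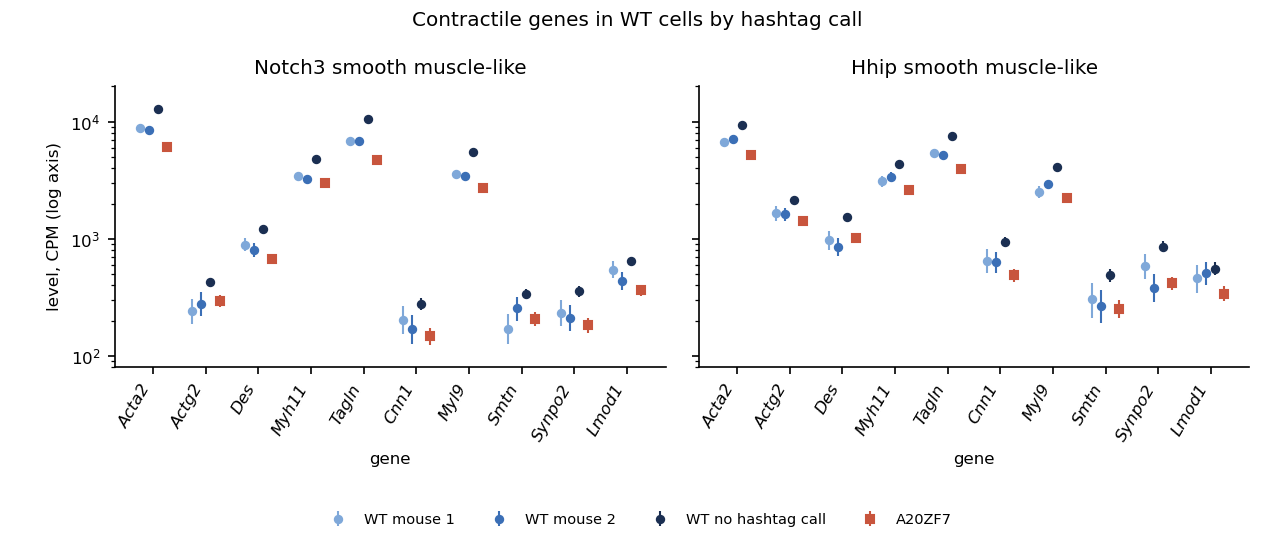
Level of each gene in CPM (log axis) in the Notch3 (left) and Hhip (right) clusters for WT mouse 1, WT mouse 2, WT cells with no hashtag call and A20ZF7 cells, with exact Poisson 95% intervals. The mice overlap closely for most genes, the uncalled WT cells lie above them, and the A20ZF7 squares lie at or below the mice for most genes.

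Smooth muscle-like cells were also a smaller share of the A20ZF7 library. They made up 11.9% of WT cells (11.4 to 12.4) and 3.17% of A20ZF7 cells (3.01 to 3.34), a ratio of 0.267 (0.249 to 0.286). Among stromal cells (the smooth muscle-like, mixed, Sox6 Pdgfra and fibroblast-like clusters), where the number of lymphocytes does not enter, they made up 24.0% and 9.72%, a ratio of 0.405. The Notch3 cluster made up 17.5% and 6.76% of the stromal cells, the Hhip cluster 6.53% and 2.96% and the Pcp4 sub-cluster 0.699% and 0.291%. The Sox6 Pdgfra cluster had nearly the same stromal share in both, 9.93% and 10.1% (ratio 1.015, 0.932 to 1.11). Of the called WT cells, 6.95% in mouse 1 and 6.35% in mouse 2 were smooth muscle-like, against 17.4% of the uncalled cells.

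Single cells of the smooth muscle-like clusters often held several of the 10 genes. Whether they did so more often than the rates of the single genes imply was not tested. The shares below are over all WT cells, called or not, and were not computed for the called WT cells alone. Of the WT smooth muscle-like cells, 1250 had no hashtag call. Their summed level was 35342 CPM, against 24159 CPM in mouse 1 and 23712 CPM in mouse 2. After thinning to 500 UMIs, which left out 129 A20ZF7 cells and no WT cell of the smooth muscle-like clusters, 58.6% of WT cells (56.2 to 60.9) and 35.9% of A20ZF7 cells (33.2 to 38.7) held UMIs of at least 5 of the 10 genes. In the Pcp4 sub-cluster these were 94.1% and 82.9%, with a median of 7 genes in WT and 6 in A20ZF7. In the Sox6 Pdgfra cluster they were 0.276% and 0.153%, and in lymphocytes 0 of 3559 WT cells (exact upper limit 0.104%) and 1 of 12946 A20ZF7 cells. Acta2 itself was found in 95.1% of WT and 82.2% of A20ZF7 Notch3 cells after thinning (97.6% and 89.7% before, at medians of 1103 and 893 UMIs). In lymphocytes it was found in 2.28% and 1.28% (3.96% and 1.95% before, at medians of 837 and 650 UMIs). Actg2 was found in 43.5% of WT and 30.8% of A20ZF7 Hhip cells and in 14.97% and 13.1% of Notch3 cells after thinning.

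The wider contractile pathway was read from a list of 30 genes, 11 of which were also among the markers that named clusters. For this list, the other actins and myosins and the myofibroblast genes, ratios are to all WT cells, called or not. Ratios to the called WT cells alone were not computed for them. For the sum of the 10 genes that ratio was 0.761, against 0.582 with all WT cells. Of the 26 past the minimum level in the smooth muscle-like clusters, 25 had a lower level in A20ZF7 and 1 a higher one, while 48.8% of all 4048 genes were lower. At least 2-fold lower were 2 and at least 2-fold higher 0, against 2.12% and 8.0% of all genes. Those 2 were Pln (426 CPM in WT, 172 CPM in A20ZF7, ratio 0.403), which restrains the calcium pump of the sarcoplasmic reticulum, and Itga8 (202 and 84.2 CPM, ratio 0.418), an integrin chain. The tropomyosins Tpm1 and Tpm2, which lie along the actin filament, had ratios of 0.628 and 0.561, and the myocardin gene Myocd a ratio of 0.621 (0.530 to 0.724). Rock1 and Rhoa, which restrain the light chain phosphatase, had ratios of 0.875 and 0.833. The gene that stood higher was Mrtfa (49.6 and 80.9 CPM, ratio 1.63), a coactivator of serum response factor that lymphocytes expressed too, at 87.2 CPM in WT. The median ratio over the 26 was 0.671.

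Several pathway genes also differed between the clusters, as a description with no test. Pln was itself a leading gene of the Notch3 cluster and Pgm5 of the Hhip cluster, and Pgm5 was also a marker used in naming. Pln was at 601 CPM in the WT Notch3 and 25.6 CPM in the WT Hhip cluster, and Itga8 at 262 and 63.9 CPM. Chrm2 stood the other way, at 2.48 CPM in the Notch3 and 172 CPM in the Hhip cluster, as did Pgm5 at 102 and 424 CPM and Fhl1 at 130 and 994 CPM. At the finer resolution Chrm2 lay mainly in the Pcp4 cells. That sub-cluster was picked out by Chrm2 among its leading genes, so a high level there is no separate result. Chrm2 was at 912 CPM in the WT Pcp4 and 1.75 CPM in the WT Hhip sub-cluster (497.5 and 34.35 CPM in A20ZF7). Pgm5 and Fhl1 were at 367 and 1175 CPM in the WT Hhip sub-cluster. Fhl1 was not particular to these cells. It was at 989.5 CPM in the WT Sox6 Pdgfra cluster and 660 CPM in WT fibroblast-like cells, but at 198 CPM in the WT Pcp4 sub-cluster. Among other actins and myosins, Actc1, the cardiac alpha actin, was at 254 CPM in the WT and 38.4 CPM in the A20ZF7 Hhip cluster, and at 7.44 and 2.03 CPM in the Notch3 cluster. Over both clusters its ratio was 0.177 (0.108 to 0.276). The essential light chain gene Myl6 had a ratio of 0.603. The cytoplasmic actins were not lower, with Actb at 1.03 (0.996 to 1.06) and Actg1 at 1.16 (1.09 to 1.24), nor was the non-muscle myosin gene Myh9 at 1.53 (1.34 to 1.74). Lymphocytes, whose markers were higher in these A20ZF7 clusters, held these genes too, in WT Actb at 3824 CPM against 4636 CPM in the smooth muscle-like clusters, Actg1 at 1185 against 960 CPM and Myh9 at 473 against 202 CPM. Their part in the ratios was not tested.

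Of 7 myofibroblast genes, 6 passed the minimum level in the smooth muscle-like clusters, 3 lower and 3 higher in A20ZF7. Postn was at 154 and 103 CPM (ratio 0.671), and Col3a1 at 550 and 462 CPM (0.841). Tnc (1.25, 1.04 to 1.49) and Col1a1 (1.17, 1.02 to 1.33) were higher. Tgfb1 was at least 2-fold higher in A20ZF7 (26.8 and 58.3 CPM, ratio 2.18), and lymphocytes held more of it, at 95.6 CPM in WT and 140 CPM in A20ZF7. In the Sox6 Pdgfra cluster Tnc stood at 929 and 550 CPM and Cdh11 at 407 and 308 CPM.

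The genes most like the list over the 26 clusters were ranked by Pearson correlation of log2(CPM + 20) with the mean of the 10 genes, among 5008 genes that reached 100 CPM in some cluster. The clusters share libraries and depth, and the correlations are a description. Tpm2 came first (0.982), followed by Dmpk, Cacnb2, Myocd, Mylk, Mrvi1, Tpm1, Myl6, Jph2 and Pdlim3, the last at 0.940. Of the 10 genes, Myh11 (0.983), Des (0.981) and Myl9 (0.9801) were closest to their own mean, and Smtn (0.895) and Lmod1 (0.920) were farthest from it. Myocd was at 163 CPM in the Notch3 cluster, 310 CPM in the Hhip cluster and 5.86 CPM in the Sox6 Pdgfra cluster, over both libraries.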

How the data were processed

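Small intestinal lamina propria cells of 2 WT and 2 A20ZF7 mice, pooled per genotype, had been captured with a 10x 5′ kit. The authors aligned and counted the reads on mm10 (Cell Ranger 7.1, R 4.3.3 and Seurat 4.3 in the submitters' notes, a later Cell Ranger in the gene expression file headers) and deposited unfiltered UMI counts per gene and barcode, 35289432 UMIs in WT and 54587004 in A20ZF7. Antibody counts were deposited too and, being the same for both genotypes, were used for WT alone.

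From these counts, cells were kept with at least 200 and at most 2500 genes, at most 15% mitochondrial UMIs, no pair of hashtags (WT, HTODemux) and UMIs past 0.1 times a high quantile of the library (675 in WT, 397 in A20ZF7). No other doublet caller was run. Cells were clustered in Seurat 5.3.0 on 1990 variable genes without the 10 genes (30 components, resolution 0.8) and named by the mean log2 fold of marker lists, by limits set after the clusters were seen. Levels were computed as CPM in Python 3.11.15 with scipy 1.17.1, on the 31950 shared IDs, and genes were compared between groups from 50 CPM and 20 UMIs in the higher one, with a fold of 2 in place of a test. Ratios and their intervals were checked on simulated counts with counting error alone. These held no spread between cells, mice or libraries, so the check does not cover such spread. Genes named are the 10, the 10 most like them over clusters and those of 3 lists. Members and lists were chosen with earlier results of these data known. Alternatives changed the cell threshold, gene limit, clustering, classes, scaling, background and depth, and left out each WT mouse.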

Additional observations from a re-analysis of the deposited data

How the results depend on the processing

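With 1 pooled library per genotype, genotype, library and capture cannot be told apart, and the 2 WT mice, known for part of the cells, are the sole biological spread. No paired analysis was possible because hashtags gave mice in WT alone and the result comes from no test. The A20ZF7 to WT ratio of the share of smooth muscle-like cells, 0.267, was 0.331 with at least 200 genes alone, 0.214 with a marker UMI gate, 0.209 with other-class UMIs limited and, chosen after seeing the data, 0.479 with called WT cells. Without 1 WT mouse each, on the called cells of the other, it ranged from 0.456 to 0.50. The ratio of the summed level, 0.582, was 0.554 from 1000 UMIs, 0.60 with a limit of 5000 genes, 0.567 with the 10 genes among the variable genes, 0.640 with the gate, 0.655 with other-class UMIs limited, 0.60 without mitochondrial, ribosomal, haemoglobin and immunoglobulin genes, 0.789 with the low-UMI profile taken off (26.6% of WT and 48.9% of A20ZF7 UMIs of the class) and 0.603 after thinning. Without 1 WT mouse each it ranged from 0.753 to 0.767. Chosen after seeing the data, it was 0.761 with called WT cells, 0.837 with other-class UMIs limited too, 0.565 in the Notch3 and 0.628 in the Hhip cluster, 0.556 with the mixed cluster and 0.569 at the WT UMI threshold. The count of genes past 2-fold was 1 of 10 from 1000 UMIs (Tagln, 0.497), where 12.3% of all genes passed, and 0 under the other settings, where 3.53% to 12.8% did. Of 120 single-gene values under 12 alternatives, 117 stayed below 1. The 3 above 1 were Actg2 with the low-UMI profile taken off (1.095) and, without WT mouse 2, Actg2 (1.04) and Smtn (1.06). Without 1 WT mouse each, Actg2 ranged from 0.922 to 1.04 and Smtn from 0.8565 to 1.06. The WT level relative to lymphocytes, 191, was 15.3 relative to barcodes under 100 UMIs. The smooth muscle-like share of the UMIs of the 10 genes in WT, 77.6%, was 61.8% over barcodes with at least 200 genes and 58.8% over all. The causes were not tested.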
